A study of Mus musculus with 2 samples.

Results

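Chemokines, interleukins and their receptors were examined in ribosome-bound RNA of the mouse cerebral cortex. The genes were taken by symbol: every gene row whose name starts with Ccl, Ccr, Cxcl, Cxcr or Il followed by a digit, plus Cx3cl1. This gave 135 of the 32531 genes listed. They comprised 35 chemokine ligands, 17 chemokine receptors, 39 interleukins, 42 interleukin receptors and binding proteins and 2 others, the amino acid oxidase gene Il4i1 and Il1bos, an RNA antisense to Il1b. The rule used names alone and no measured value.

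Both libraries, IP1 and IP2, came from the Gdnf-TRAP ES2243 mouse line, in which a fusion of EGFP and the ribosomal protein Rpl10a is driven by regulatory sequences of Gdnf, the gene of a neurotrophic factor. Polysomes carrying the tag were pulled from cortex homogenate of untreated adult mice with antibodies to EGFP, and the series names pericytes, the cells that wrap capillaries, as its target. The libraries form 1 group, and separate animals are not named in the labels, so the spread between them may be technical. Unpurified cortex was not analysed here, so no enrichment over the tissue can be given.

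Chemokines are small secreted or membrane-tethered proteins that direct cell migration, and they act through G protein-coupled receptors on the target cell. Interleukins are cytokines that signal through single-pass receptor chains, most of which work in combinations, and the chains reach the nucleus through JAK and STAT proteins or through MyD88 and NF-kB. In the healthy brain a few of these ligands are made without inflammation, among them CXCL12 along vessels and meninges, CX3CL1 in neurons, IL-34 in neurons and IL-33 in glia. Inflammatory members of the families are switched on by injury or infection.

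Reads assigned to genes numbered 65200231 in IP1 and 72732502 in IP2. Levels are given as CPM, the reads of a gene scaled to a common library total. They are not divided by transcript length, so they compare a gene between libraries and do not rank genes. All 10 pericyte markers reached 10 CPM in both libraries, but so did all 6 neuronal, all 5 oligodendrocyte, all 5 oligodendrocyte precursor and 6 of 7 astrocyte markers. Markers of immune and endothelial cells were scarce: 0 of 10 microglial, 0 of 5 perivascular macrophage and 1 of 10 endothelial markers reached 10 CPM in both, although 7 microglial markers reached 1 CPM. All 4 smooth muscle and all 5 perivascular fibroblast markers reached 10 CPM in both. The summed level of the 6 T cell markers was 3.45 CPM in IP1 against 1.98 CPM in IP2, most of it Cd4, and Cd3g and Cd8a had no count. The 4 B cell markers summed to 0.061 CPM in IP1 against 0 in IP2, and 4 neutrophil markers to 0.046 CPM in IP1 against 0 in IP2. In bulk RNA, fewer cells of a type and less RNA per cell cannot be told apart, and the cell of origin of each transcript below was not tested.

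A small set of the family made up most of its reads, and many members had none. Of the 135 members, 14 (10.4%) reached 10 CPM in both libraries, against 28.3% of all genes listed. A further 18 reached 1 CPM in both, for a total of 32 (23.7%), against 41.3% of all genes. No read was counted for 51 members (37.8%), against 39.8% of all genes. The roles differed in these counts: 23 of 39 interleukins and 9 of 17 chemokine receptors had no count, against 10 of 35 chemokine ligands and 9 of 42 interleukin receptors and binding proteins. No test was made of these shares, since genes are not replicates.

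**Figure D1:**
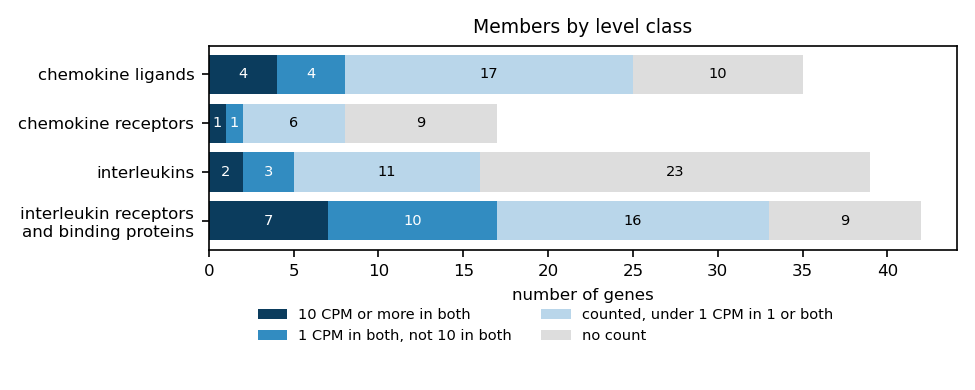
Number of members (horizontal axis) of each role (rows) by level in the libraries, with each class of level in its own shade. The interleukins form the bar with the largest share without a count (23 of 39), and the interleukin receptors and binding proteins hold 17 members at 1 CPM or more in both libraries.

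The RefSeq start regions of 4 chemokine ligands are printed because they set the ligands that were abundant here beside inducible ones that were not. Cxcl12 and Cx3cl1 were each near 100 CPM in both libraries, Cxcl10 was near 1 CPM, and Cxcl2 had no count. Each window runs from 250 bases before to 50 bases after the annotated start (GRCm38.p6, the mm10 assembly), 5′ to 3′ on the gene's strand. Capitals mark matches, on either strand, to a TATA box (TATAAA), to the NF-kB consensus or to the core of an interferon-stimulated response element (GAAANNGAA, with N for any base).
Cxcl12, chr6:117168285-117168584, plus strand: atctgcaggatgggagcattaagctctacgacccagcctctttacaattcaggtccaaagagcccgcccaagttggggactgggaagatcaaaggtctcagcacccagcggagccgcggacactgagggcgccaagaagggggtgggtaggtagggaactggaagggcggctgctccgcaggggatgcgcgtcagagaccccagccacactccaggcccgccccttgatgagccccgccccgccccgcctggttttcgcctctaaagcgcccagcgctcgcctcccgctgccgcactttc
Cx3cl1, chr8:94771930-94772229, plus strand: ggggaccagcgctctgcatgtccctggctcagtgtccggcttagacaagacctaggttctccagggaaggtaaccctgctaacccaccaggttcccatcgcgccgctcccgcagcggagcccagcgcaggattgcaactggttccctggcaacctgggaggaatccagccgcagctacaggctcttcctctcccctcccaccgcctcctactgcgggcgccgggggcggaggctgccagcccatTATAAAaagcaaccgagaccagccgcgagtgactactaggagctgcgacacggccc
Cxcl2, chr5:90903649-90903948, plus strand: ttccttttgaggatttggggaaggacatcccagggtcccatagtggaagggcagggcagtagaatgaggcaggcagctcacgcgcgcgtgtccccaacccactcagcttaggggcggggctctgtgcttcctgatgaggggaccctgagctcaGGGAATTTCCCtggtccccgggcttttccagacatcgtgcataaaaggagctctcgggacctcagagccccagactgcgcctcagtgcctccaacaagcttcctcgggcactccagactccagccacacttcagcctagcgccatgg
Cxcl10, chr5:92348840-92349139, minus strand: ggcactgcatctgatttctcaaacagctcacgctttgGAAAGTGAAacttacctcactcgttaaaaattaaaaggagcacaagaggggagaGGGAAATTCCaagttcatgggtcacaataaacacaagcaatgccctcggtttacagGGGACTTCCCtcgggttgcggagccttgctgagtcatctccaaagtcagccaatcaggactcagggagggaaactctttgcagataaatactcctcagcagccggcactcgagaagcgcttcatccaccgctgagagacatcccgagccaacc

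Cxcl12 held none of the 3 motifs, and Cx3cl1 held TATAAA letters that began 6 bases before the annotated start. Cxcl2 held 2 overlapping NF-kB matches, shown as 1 run of capitals, and Cxcl10 held 2 separate NF-kB matches and an interferon element. Of the 135 members, 103 had at least 1 window in the table. NF-kB letters were found for 16 of these 103 genes (15.5%), against 1388 of 27025 genes with a window (5.14%). By level, the motif was found for 3 of 13 members at 10 CPM or more in both libraries, 2 of 13 others at 1 CPM or more, 6 of 35 counted below that and 5 of 42 without a count. The 3 at 10 CPM were Ccl27a, Il1r1 and Il2ra, and the 5 without a count were Ccl20, Ccr3, Cxcl2, Cxcl3 and Il6. Another form of the motif, stricter at 3 positions and freer at 1, was found for 10 of the 103 genes (9.71%), against 1.38% of all genes, and for 0 of the 13 members at 10 CPM or more, so the split by level depended on the form. Of these 10 genes, 9 were among the 16 and Il21r was not. TATA letters were found for 10 of 24 chemokine ligands and 11 of 29 interleukins, but for 2 of 35 interleukin receptors and binding proteins, against 15.7% of all genes with a window. The interferon core was found for 12 of the 103 (11.7%), against 9.76% of all genes. These matches describe letters in a short window; binding of any factor was not measured.

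Among chemokine ligands, 4 reached 10 CPM in both libraries: Cxcl12, Cx3cl1, Cxcl14 and Ccl27a. Cxcl12 (chromosome 6, 117168535 to 117181368, mm10), a ligand that holds cells in their niche and guides migrating neurons and precursors, was at 105 CPM in IP1 against 102 CPM in IP2 (103 ± 2.21 CPM, SD, n = 2). Cx3cl1 (chromosome 8, 94772180 to 94782427), which encodes fractalkine, the membrane-tethered neuronal ligand of the microglial receptor CX3CR1, was at 103 CPM in IP1 against 102 CPM in IP2. These ligands thus had nearly the same level in both libraries. Cxcl14 (chromosome 13, 56288643 to 56296811), known in cortex from a class of interneurons, was at 16.8 CPM in IP1 against 24.4 CPM in IP2 (20.6 ± 5.38 CPM, SD, n = 2). Ccl27a, which attracts cells bearing CCR10, was at 11.8 CPM in IP1 against 16.7 CPM in IP2. It overlaps Il11ra1, and both genes have close copies on the same chromosome (Ccl27b and Il11ra2), so their counts are uncertain.

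Ligands at 1 CPM in both libraries without reaching 10 CPM in both were Ccl28, Cxcl16, Ccl11 and Ccl19. Ccl28, a mucosal chemokine that also binds CCR10, was at 9.89 CPM in IP1 against 6.63 CPM in IP2. Cxcl16, a membrane-tethered ligand of CXCR6, was at 10.7 CPM in IP1 against 5.005 CPM in IP2. Ccl11, the eotaxin gene, was at 1.63 CPM in IP1 against 3.77 CPM in IP2, and Ccl19, a lymphoid homing ligand, at 1.37 CPM in IP1 against 1.61 CPM in IP2. Cxcl16 and Ccl11 thus lay on opposite sides of the comparison between the libraries, which is tested further on. Cxcl16 overlaps Zmynd15, and Ccl19 a noncoding gene, which leaves part of their reads unassigned.

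Other chemokine ligands were under 1 CPM in at least 1 library. Ccl2, the monocyte attractant, was at 0.80 CPM in IP1 against 1.07 CPM in IP2, from 52 and 78 reads. The interferon-induced ligands Cxcl9 (0.81 CPM in IP1, 1.24 CPM in IP2) and Cxcl10 (0.77 CPM in IP1, 1.21 CPM in IP2) lie side by side on chromosome 5, and Cxcl10 lies within the span of Art3. Their neighbour Cxcl11, a transcribed pseudogene in the RefSeq annotation, had 11 reads in IP1 and 23 in IP2. Ccl25 had 1.69 CPM in IP1 against 0.54 CPM in IP2. The neutrophil attractants Cxcl1 and Cxcl5 had 17 and 13 reads in IP1, and 4 and 1 in IP2. Ccl3 and Ccl5 had at most 4 reads in either library. Ccl1, Ccl4, Ccl8, Ccl12, Ccl20, Ccl26, Cxcl2, Cxcl3, Cxcl15 and Cxcl17 had no count in either. A gene without a count could have had up to 3 reads, which is 0.046 CPM in IP1 against 0.041 CPM in IP2. These limits cover counting error only, as do all intervals below.

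The limit does not hold for a gene that overlaps another gene listed, because reads matching several genes were left unassigned. Among the 51 members without a count, 11 overlap another RefSeq gene: Ccl4, Cxcl17, Cxcr6, Il11ra2, Il17re, Il1a, Il1b, Il27, Il3, Il6 and Il9r. The genes that overlap Il17re, Il3, Il6 and Il9r are not among the genes listed under their RefSeq symbols. Whether reads were left unassigned for these members is not known. For the other 40 the limit applies, but it leaves out reads aligned to several places, which were also not assigned to genes. How many of those reads came from these members is not known.

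**Figure D2:**
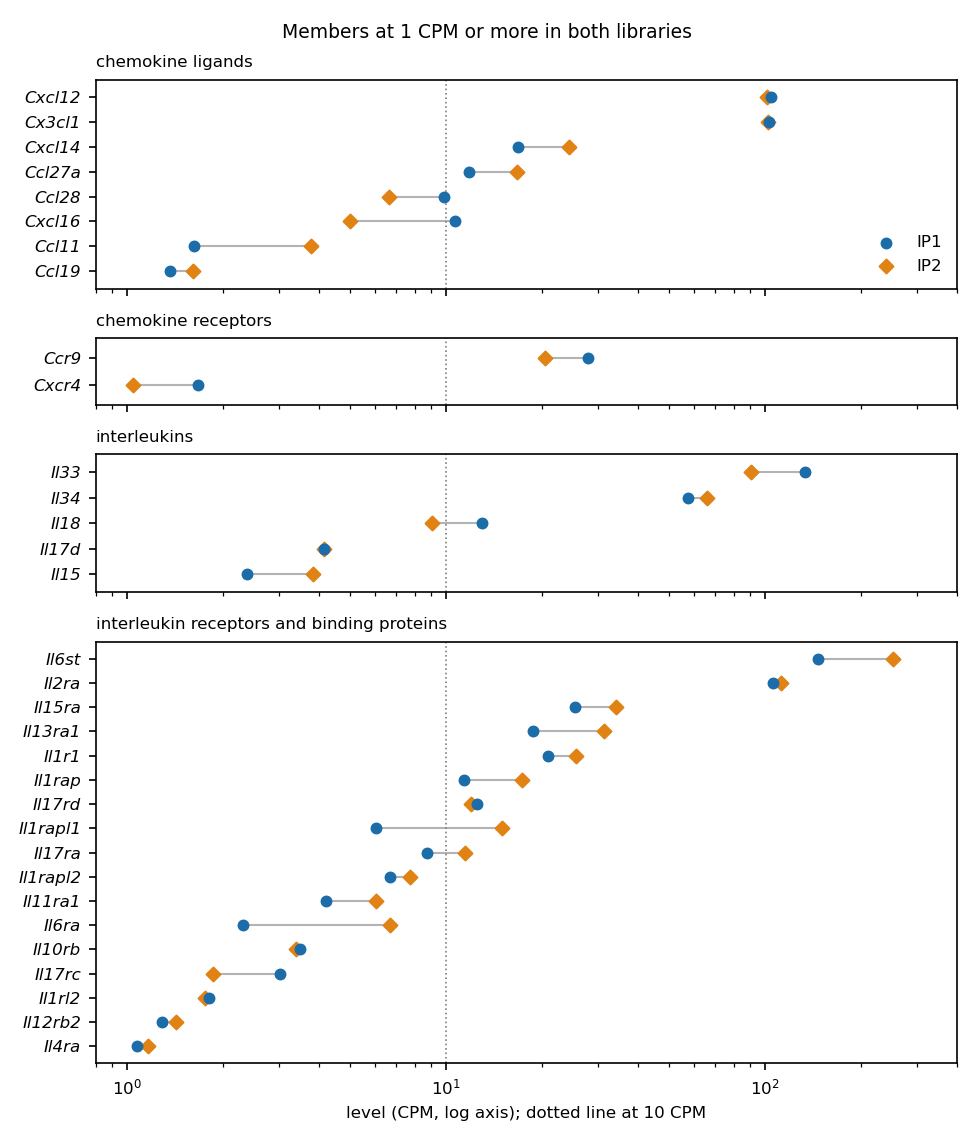
Level in CPM (horizontal log axis) of the 32 members at 1 CPM or more in both libraries, one row a gene, in a panel for each role, with circles for IP1 and diamonds for IP2. Cxcl12 and Cx3cl1 have nearly coincident symbols near 100 CPM, whereas the symbols of Il6ra, Il1rapl1 and Ccl11 lie more than 2-fold apart.

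Of the chemokine receptors, 2 of 17 were at 1 CPM or more in both libraries. Ccr9 (chromosome 9, 123767211 to 123783457), best known as the gut homing receptor of T cells and the receptor of CCL25, was at 27.8 CPM in IP1 against 20.5 CPM in IP2, from 1815 and 1493 reads. Cxcr4, the signalling receptor of CXCL12, was at 1.67 CPM in IP1 against 1.04 CPM in IP2. The neighbours of Ccr9 with a row in the files are Fyco1, which starts 6043 bases away and was at 84.8 CPM in IP1 against 81.0 CPM in IP2, and Lztfl1, at 38.2 CPM in IP1 against 29.8 CPM in IP2. Ccr9 also overlaps Gm17021, a RefSeq gene that is not among the genes listed. The part of these neighbours and of Gm17021 in the Ccr9 count was not tested. Ccr10 had 28 reads in IP1 and 59 in IP2, and it overlaps the neuronal gene Cntnap1. Cxcr5 had 18 and 19 reads, Ccr7 6 and 5, Ccr2 18 and 0, Ccr6 0 and 6, and Ccr1 1 and 0, with IP1 given first. Receptors without a count included Ccr3, Ccr4, Ccr8, Ccr1l1, Cxcr1, Cxcr2, Cxcr3 and Cxcr6.

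Among interleukins, Il33 and Il34 reached 10 CPM in both libraries. Il33 (chromosome 19, 29925113 to 29960718), a nuclear alarmin released by damaged cells and made in brain by astrocytes and oligodendrocytes, was at 134 CPM in IP1 against 90.3 CPM in IP2 (112 ± 30.7 CPM, SD, n = 2). Il34 (chromosome 8, 110741829 to 110805949), a neuronal survival factor for microglia, was at 57.5 CPM in IP1 against 66.0 CPM in IP2 (61.8 ± 6.02 CPM, SD, n = 2). Both were thus present in both libraries at levels within 1.5-fold of each other.

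Il18, an IL-1 family cytokine that needs cleavage by caspase-1, was at 12.96 CPM in IP1 against 9.05 CPM in IP2, and it overlaps Bco2 and Tex12. Il17d, a member of the IL-17 family, had the same level to within 0.01 CPM, at 4.156 CPM in IP1 against 4.152 CPM in IP2. Il15, which supports natural killer and memory T cells, was at 2.38 CPM in IP1 against 3.84 CPM in IP2. Below these, Il11 (1.75 CPM in IP1, 0.87 CPM in IP2), Il16 (1.64 CPM in IP1, 0.62 CPM in IP2), Il12a (1.503 CPM in IP1, 0.19 CPM in IP2) and Il23a (0.25 CPM in IP1, 0.74 CPM in IP2) were counted. The interleukins without a count were of several classes. They included the pro-inflammatory Il1a, Il1b, Il6, Il17a and Il17f, and Il17c, Il12b and Il27. They also included the type 2 cytokines Il4, Il5, Il9, Il13 and Il31, the growth factor Il3, the regulatory Il10 and its relatives Il20, Il22 and Il24, and the IL-36 and IL-38 genes Il1f5, Il1f6, Il1f8, Il1f9 and Il1f10.

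Interleukin receptors were the role with the most members at 10 CPM or more in both libraries, 7 of 42. Il6st (chromosome 13, 112464070 to 112506860) encodes gp130, the shared signalling chain of the IL-6 family. It was at 147 CPM in IP1 against 252 CPM in IP2 (199 ± 74.1 CPM, SD, n = 2). Il6ra, the IL-6 binding chain, was at 2.32 CPM in IP1 against 6.71 CPM in IP2, and Il11ra1 at 4.22 CPM in IP1 against 6.06 CPM in IP2. All 3 chains of this family had the larger CPM in IP2.

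Il2ra (chromosome 2, 11642792 to 11693194) encodes CD25, the high-affinity chain of the IL-2 receptor, which is known from regulatory and activated T cells. It was at 106 CPM in IP1 against 112 CPM in IP2 (109 ± 4.11 CPM, SD, n = 2), from 6935 and 8159 reads. Its signalling partners had few reads: Il2rb had 7 reads in IP1 and 10 in IP2, and Il2rg 10 reads in IP1 and 11 in IP2. The T cell receptor complex gene Cd3e had 2 reads in IP1 and 0 in IP2, and Cd3d had 3 in IP1 and 0 in IP2. Of the other T cell markers, Cd4 had 195 reads in IP1 and 144 in IP2, and Lck had 25 in IP1 and 0 in IP2. Cd3g and Cd8a had none in either library. Il2 itself had 2 reads in IP1 and 0 in IP2. Il15ra (chromosome 2, 11705172 to 11733985), which presents IL-15 to neighbouring cells and starts 11978 bases beyond Il2ra, was at 25.4 CPM in IP1 against 34.2 CPM in IP2. On the other side of Il2ra, Rbm17 was at 58.9 CPM in IP1 against 59.5 CPM in IP2. Il2ra itself overlaps Gm39760, a RefSeq gene that is not among the genes listed, and the part of Gm39760 in the Il2ra count was not tested. Which exons of Il2ra the reads covered cannot be read from gene counts.

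Both chains of the IL-1 receptor were present. Il1r1, the ligand-binding chain, was at 20.9 CPM in IP1 against 25.6 CPM in IP2, and Il1rap, the accessory chain, at 11.4 CPM in IP1 against 17.3 CPM in IP2. The decoy Il1r2 had 22 reads in IP1 and 0 in IP2, and the antagonist Il1rn had 6 reads in each. Il1rl1, the IL-33 receptor ST2, had no count, and Il1rl2, the IL-36 receptor, was at 1.81 CPM in IP1 against 1.76 CPM in IP2. The synaptic organizers Il1rapl1 (6.03 CPM in IP1, 15.0 CPM in IP2) and Il1rapl2 (6.70 CPM in IP1, 7.70 CPM in IP2), both X-linked and known from neurons, are related to the accessory chain and do not bind IL-1.

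Other receptor chains above 1 CPM in both libraries belonged to the type 2, IL-10, IL-12 and IL-17 families. Il13ra1, shared by IL-4 and IL-13, was at 18.7 CPM in IP1 against 31.3 CPM in IP2, and its partner Il4ra at 1.07 CPM in IP1 against 1.17 CPM in IP2. Il17rd, an inhibitor of fibroblast growth factor signalling, was at 12.5 CPM in IP1 against 12.02 CPM in IP2. Il17ra, the common IL-17 chain, was at 8.74 CPM in IP1 against 11.5 CPM in IP2, and its partner Il17rc at 3.02 CPM in IP1 against 1.87 CPM in IP2. Il13ra1 with Il4ra makes up a receptor of IL-13, and Il17ra with Il17rc that of IL-17A.

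Il10rb was at 3.48 CPM in IP1 against 3.40 CPM in IP2, while its partner Il10ra had 65 reads in IP1 and 2 in IP2. Il12rb2 was at 1.29 CPM in IP1 against 1.43 CPM in IP2, and it overlaps the abundant gene Serbp1. Il18bp, a soluble inhibitor of IL-18, was at 1.53 CPM in IP1 against 0.29 CPM in IP2, and Il17rb at 0.49 CPM in IP1 against 0.98 CPM in IP2. Il20rb had 0 reads in IP1 and 87 in IP2. The remaining counted chains, such as Il12rb1, Il7r, Il18r1, Il21r and Il27ra, were all at or under 0.35 CPM, and Il3ra, Il5ra, Il9r, Il18rap, Il17re, Il22ra2, Il23r and Il11ra2 had no count.

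Setting ligands beside their receptor chains showed that most ligands at 1 CPM or more did not have every receptor chain at 1 CPM, and that several ligands without a read did. The list held 48 ligands with 74 ligand-chain combinations, of which 7 had both sides at 1 CPM or more in both libraries and 3 had both at 10 CPM or more. The 3 were Cxcl12 with Ackr3, Il34 with Ptprz1 and Il33 with Il1rap. Ackr3, an atypical receptor that takes up CXCL12 without signalling through G proteins, was at 41.6 CPM in IP1 against 59.0 CPM in IP2, while Cxcr4 stood near 1 CPM. Ptprz1, a receptor phosphatase of glia and their precursors to which IL-34 also binds, was at 134 CPM in IP1 against 336 CPM in IP2. The microglial receptors were low: Csf1r was at 2.81 CPM in IP1 against 4.58 CPM in IP2, and Cx3cr1 at 2.64 CPM in both.

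Of 11 ligands at 1 CPM or more in both libraries, 3 had every listed receptor chain at 1 CPM or more in both (Cxcl12, Cx3cl1 and Il34). No read was counted for Il1rl1, a chain for Il33, for Il18rap, a chain for Il18, or for Ccr3, the receptor of Ccl11. Cxcr6, the receptor of Cxcl16, had no count either, but it overlaps Fyco1, so its count of 0 is not bounded. Conversely, 6 of 17 ligands without a count had all listed chains at 1 CPM or more in both libraries: Il1a, Il1b, Il6, Il13, Il17a and Il17f. Of these 6, Il1a and Il1b overlap another gene listed, so their count of 0 is not bounded. Il6 overlaps a RefSeq gene that is not listed, and whether reads were left unassigned for it is not known.

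**Figure D3:**
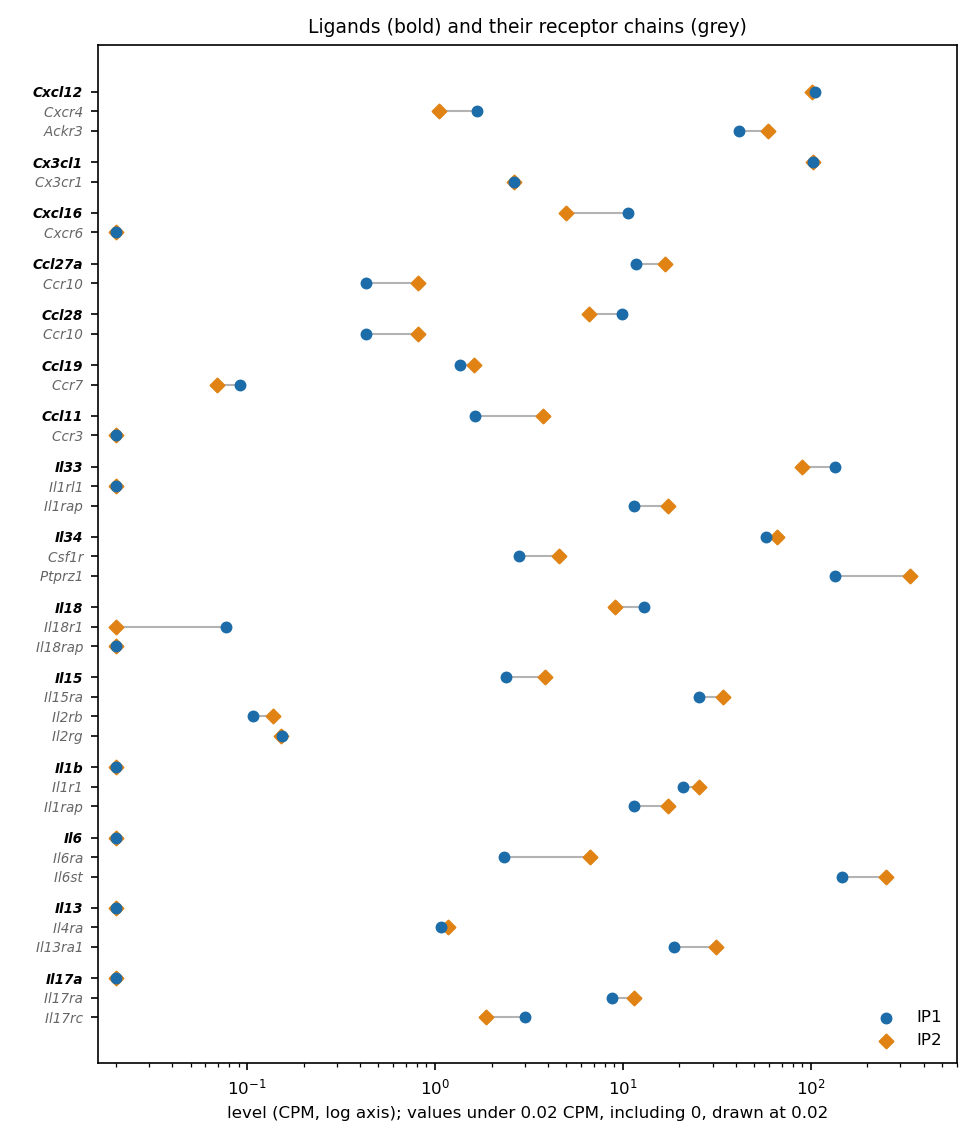
Level in CPM (horizontal log axis) of 15 ligands in bold and of the receptor chains listed under each in grey, with circles for IP1 and diamonds for IP2; values under 0.02 CPM, including 0, are drawn at 0.02. Il1b, Il6, Il13 and Il17a sit at the left edge above receptor chains that lie at 1 CPM or more, and Il33 sits above Il1rl1 at the left edge.

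Most genes that carry the signal inside the cell were counted at 1 CPM or more. Of 19 adaptors of the IL-1 and IL-17 receptors and NF-kB genes, 15 reached 10 CPM and all 19 reached 1 CPM in both libraries. Myd88, the adaptor of IL-1 receptors, was at 14.7 CPM in IP1 against 18.7 CPM in IP2, Traf6 at 145 CPM in IP1 against 141 CPM in IP2, and Rela, an NF-kB subunit, at 64.9 CPM in IP1 against 46.3 CPM in IP2. Of 17 JAK, STAT, SOCS and PIAS genes, 9 reached 10 CPM in both. Jak1, the kinase that pairs with gp130, was at 330.2 CPM in IP1 against 334 CPM in IP2, and Stat3 at 124 CPM in IP1 against 142 CPM in IP2. Lymphoid members of the list were low, with Jak3 at 0.43 CPM in IP1 against 0.84 CPM in IP2 and Stat4 at 0.38 CPM in IP1 against 0.92 CPM in IP2.

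Of 11 genes of the G protein arm of chemokine receptors, 8 reached 10 CPM in both libraries, among them the inhibitory G protein subunit gene Gnai2 at 402 CPM in both. The leukocyte genes Dock2 (1.30 CPM in IP1, 0.27 CPM in IP2) and Rac2 (1.24 CPM in IP1, 0.041 CPM in IP2) did not. Of 16 genes of the IL-6 family and shared subunits outside the symbol rule, Lifr (61.4 CPM in IP1, 89.1 CPM in IP2), Cntfr (28.9 CPM in IP1, 50.7 CPM in IP2), Osmr (14.8 CPM in IP1, 24.1 CPM in IP2) and Csf1 (28.6 CPM in IP1, 31.6 CPM in IP2) reached 10 CPM in both. Lifr, Osmr and Cntfr are receptor chains that work with gp130. Of their ligands, Lif was at 0.43 CPM in IP1 against 0.27 CPM in IP2, Osm had no more than 3 reads, and Cntf was at 0.061 CPM in IP1 against 0.54 CPM in IP2. Of 11 other chemokine system genes, Ackr3 and Ackr1 (10.7 CPM in IP1, 10.9 CPM in IP2) reached 10 CPM in both. Ackr1 is the blood group Duffy receptor that binds many inflammatory chemokines.

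Members often lie in arrays on a chromosome, and within these arrays few members reached 10 CPM. Arrays were taken as runs of 3 or more members less than 200 kb apart in RefSeq. There were 12, with 54 members, of which 3 (5.56%) reached 10 CPM in both libraries and 27 had no count. Of the 81 members outside arrays, 11 (13.6%) reached 10 CPM in both and 24 had no count. Members that lie in pairs count as outside, among them Il2ra and Il15ra, both at 10 CPM or more. On chromosome 8, Cx3cl1 lies between Ccl22 (0.77 CPM in IP1, 0.91 CPM in IP2) and Ccl17 (1.12 CPM in IP1, 0.51 CPM in IP2), 20792 bases from the first and 26953 from the second. In the array from Il1r2 to Il18rap on chromosome 1, Il1r1 was the member at 10 CPM and Il1rl1 and Il18rap had no count. Both arrays of Ccl genes on chromosome 11, which hold 11 ligands, had 0 members at 10 CPM, as did both arrays of Cxcl genes on chromosome 5, with 8.

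**Figure D4:**
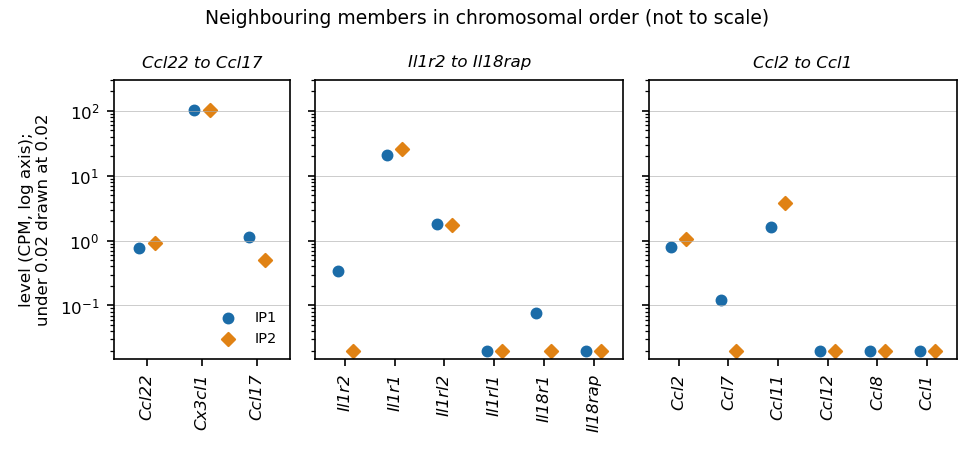
Level in CPM (vertical log axis) of neighbouring members in 3 chromosomal arrays, in chromosomal order with equal spacing, with circles for IP1 and diamonds for IP2; values under 0.02 CPM, including 0, are drawn at 0.02. Cx3cl1 and Il1r1 stand above 10 CPM in their arrays, and no gene of the array from Ccl2 to Ccl1 does.

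Reads of each gene in IP1 were set against those in IP2 by an exact binomial test, two-sided. This test compares 2 libraries and holds counting error alone, so it does not give the spread between animals. Of the 135 members, 69 had the 10 reads in total needed for the test. Calls required a 2-fold ratio and an adjusted p below 0.05. In all, 15 members (21.7% of those tested) were called higher in IP1, against 10.3% of the 17306 genes tested, and 10 (14.5%) higher in IP2, against 7.25%. Of these 25 members, 19 had a mean under 1 CPM, 12 called higher in IP1 and 7 in IP2. Calls over all genes also lay mostly at low level. Only 504 of the 1778 genes called higher in IP1, and 523 of the 1255 higher in IP2, had a mean of 1 CPM or more. Such low genes were 33 of the 69 members tested, whereas 13956 of the 17306 genes tested had a mean of 1 CPM or more. The shares over all levels thus compare sets of unlike level. At a mean of 1 CPM or more, 3 of 36 members were called higher in IP1 and 3 higher in IP2, against 3.61% and 3.75% of 13956 genes. Of the 36, 21 (58.3%) differed by no more than 1.5-fold, against 79.0% of those 13956 genes. The median log2 ratio of IP1 over IP2 was -0.05 over the 69 members and 0.00 over all genes tested.

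The members called at 1 CPM or more were of different roles. Higher in IP1 were Ccl25 (log2 ratio 1.59, exact 95% interval 1.06 to 2.17), Il16 (1.34, interval 0.84 to 1.89) and Cxcl16 (1.04, interval 0.86 to 1.23). Higher in IP2 were Il6ra (log2 ratio of IP1 over IP2 -1.58, exact 95% interval -1.86 to -1.32), Il1rapl1 (-1.36, interval -1.53 to -1.20) and Ccl11 (-1.26, interval -1.60 to -0.94). At the coefficient of variation measured between the libraries, 0.257, an edgeR exact test called 0 of these 6, with adjusted p from 0.0542 (Il6ra) to 0.364 (Cxcl16). That test called 7 members higher in IP1 and 4 higher in IP2, all under 1 CPM on average, against 5.27% and 3.03% of all genes tested. Its coefficient was estimated from IP1 and IP2 themselves, over genes at a mean of 1 CPM or more. It thus does not cover the level of the members that this test called. Il6st had a log2 ratio of -0.83 (interval -0.87 to -0.79) and Il33 one of 0.51 (interval 0.47 to 0.56), both short of the 2-fold needed for a call. For Cxcl12 the interval of the ratio, -0.06 to 0.04, included 0, as did that for Cx3cl1, -0.09 to 0.00.

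**Figure D5:**
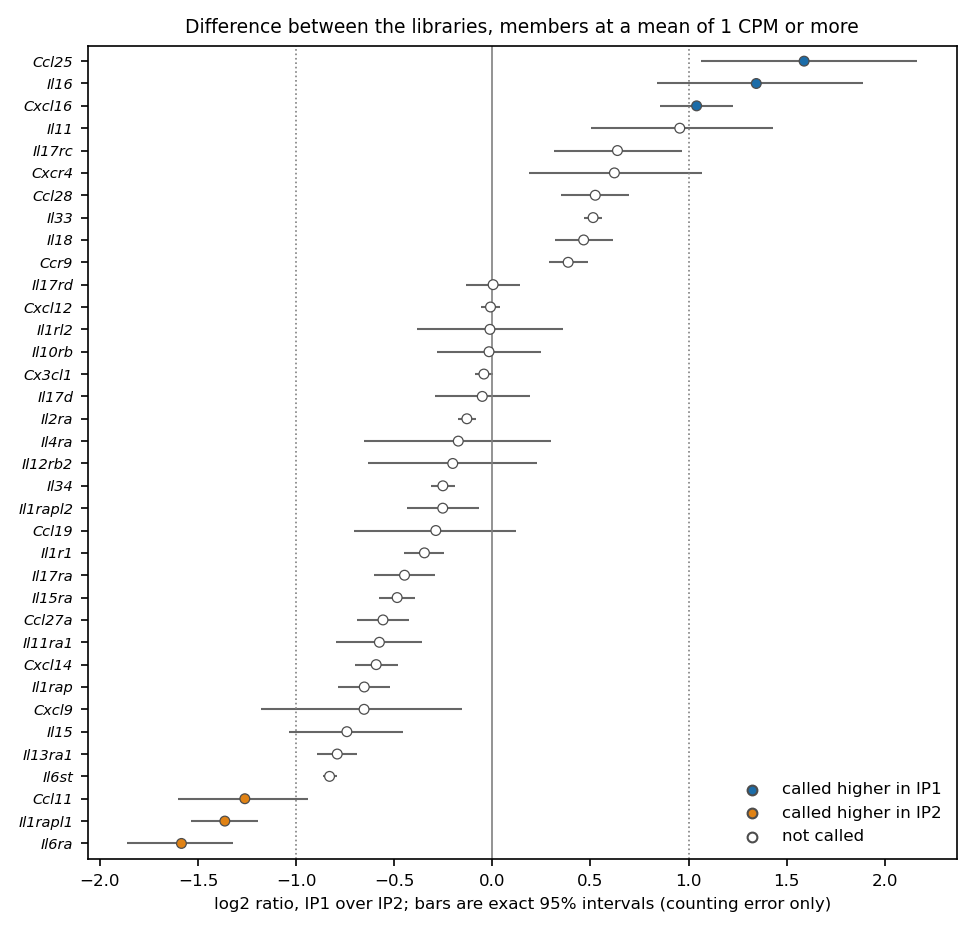
Log2 ratio of IP1 over IP2 (horizontal axis) for the 36 members at a mean of 1 CPM or more, with exact 95% intervals for counting error as bars. Filled points are called members, 3 higher in IP1 at the top and 3 higher in IP2 at the bottom, beyond the dotted lines that mark a 2-fold ratio.

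Genes of the pathway lists were called in both directions. Among those higher in IP1 were Traf3ip2, the adaptor of IL-17 receptors (6.49 CPM in IP1 against 2.67 CPM in IP2), of 19 adaptors and NF-kB genes, Socs1, a feedback inhibitor of JAK kinases (0.58 CPM in IP1 against 0.21 CPM in IP2), of 17 JAK and STAT pathway genes, and Dock2 and Rac2 of 11 in the G protein arm. Pf4, a platelet chemokine, was also called higher in IP1. Higher in IP2 were Jak3 and Stat4 of the JAK and STAT list, and Cntf, Ctf1, Csf2rb and Crlf2 of the 16 IL-6 family and shared subunit genes.

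Some members of low level were counted in 1 library only. There were 18, of which 12 had reads in IP1 and 6 in IP2, from 1 to 87 reads. They were 21.4% of the 84 members counted, against 11.8% of the 19580 genes counted in all. Il20rb, a chain of the IL-20 receptor, had 0 reads in IP1 and 87 in IP2. Its log2 ratio of IP1 over IP2 was at most -4.42 by the exact interval. Il7, a survival factor of lymphocytes, had 0 reads in IP1 and 26 in IP2, and Il1r2 had 22 in IP1 and 0 in IP2. Both overlap another RefSeq gene, which for Il7 is not among the genes listed, and no bound on their ratio is given. Ccr2, with 18 reads in IP1 and 0 in IP2, had a log2 ratio of IP1 over IP2 of at least 2.24 by the exact interval. Il12a, with 98 reads in IP1 and 14 in IP2, and Il10ra, with 65 in IP1 and 2 in IP2, were also called higher in IP1.

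Markers of several cell types differed between the libraries as well. The 7 astrocyte markers summed to 1796 CPM in IP1 against 2828 CPM in IP2. Slc1a2 made up most of that, at 1158 CPM in IP1 against 2028 CPM in IP2, and the other 6 summed to 637 CPM in IP1 against 800 CPM in IP2. Of the 7, 1 had the larger CPM in IP1 and 6 in IP2, and the median log2 ratio was -0.86. Called higher in IP2 were 2 of the 7, against 3.75% of genes at a mean of 1 CPM or more. The 5 oligodendrocyte precursor markers summed to 2002 CPM in IP1 against 2580 CPM in IP2, with 2 called higher in IP2, Pdgfra and Gpr17. Pdgfra is also on the perivascular fibroblast list and so does not mark precursors alone. The 5 perivascular fibroblast markers summed to 2313 CPM in IP1 against 3414 CPM in IP2, and all 5 had the larger CPM in IP2. The 10 pericyte markers summed to 6466 CPM in IP1 against 6421 CPM in IP2, but Rgs5 made up most of that, and the other 9 summed to 1626 CPM in IP1 against 2360.2 CPM in IP2. Of the 10, 2 had the larger CPM in IP1 and 8 in IP2, the median log2 ratio was -0.63, and Notch3 was called higher in IP2. The 6 neuronal markers summed to 14639 CPM in IP1 against 12648 CPM in IP2, a difference carried by Snap25: the other 5 summed to 1869 CPM in IP1 against 1853 CPM in IP2, and the median log2 ratio was -0.03. Microglial markers summed to 33.3 CPM in IP1 against 38.2 CPM in IP2, and perivascular macrophage markers to 3.65 CPM in IP1 against 5.94 CPM in IP2, with 1 of 5 (Cbr2) called higher in IP1 and 3 higher in IP2. The part of these differences in the ratios of the members was not tested.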

How the data were processed

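Each deposited file holds raw counts of reads per gene symbol for 1 library of ribosome-bound cortex RNA. STAR 2.0.0e, HTSeq and mm10 are named in the submitters' processing notes, while the annotation and strand setting were not given in the sources used here. Reads aligned to several places or matching several genes were not assigned to genes, per the file's summary lines. Those lines, and a row named unknown (1 read in IP1, 0 in IP2), were left out. Here counts were scaled to CPM on all gene counts, and mean ± SD is over 2 libraries. The libraries were compared with an exact binomial test on TMM-scaled library sizes (edgeR 4.0.16) for genes with 10 or more reads in total, with Benjamini-Hochberg adjustment over all 17306; log2 ratios used a prior of 0.5 counts. The common coefficient of variation was 0.257 over the 13956 genes at a mean of 1 CPM or more.

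All 135 members matched RefSeq (GRCm38.p6) by symbol for position and overlap, and 103 had a promoter window; no exon lengths were used. All members at 1 CPM or more in both libraries were named, and, below that, the 4 of each role with the largest CPM, every call at a mean of 1 CPM or more and members without a count, except that a few genes are not reported here. Other members named, and the printed windows, were chosen after their values were seen. The motif forms were reset after matches to the first forms had been seen. Members and lists were chosen with earlier results of these data known. DESeq2 1.42.0, R 4.3.3, Python 3.11.15, scipy 1.17.1 and matplotlib 3.10.9 were also used. The test was checked on simulated counts that held counting error alone, with changes set only in genes of many reads. That check did not cover wider spread between libraries, or the finding of changes in genes of few reads. Without molecular identifiers, PCR copies count as reads.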

Additional observations from a re-analysis of the deposited data

How the results depend on the processing

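The counts of members at 1 CPM in both libraries (32) and without a count (51) stayed within 1.5 times under all alternatives run, from 25 to 40 and from 51 to 63. The count at 10 CPM (14) was 9 at a threshold of 20 CPM and otherwise lay between 10 and 20. With only genes of 100 or more reads tested, IP1 had 6 higher members and IP2 had 4, since fewer genes were tested. At 1.5-fold, 18 members were higher in IP1 and 18 in IP2, and on the adjusted p alone 22 and 26, so the excess of calls towards IP1 was lost. With a coefficient of variation of 0.2 assumed, the exact test of edgeR called 10 and 8 members higher in IP1 and in IP2. At the measured coefficient of variation, 0.257, added after seeing the data, it called 7 and 4. The motif forms tried first were found for 10 members (NF-kB, against 16) and 6 members (interferon, against 12). Of 34 named members, 5 with a ratio near 0 changed sign when total counts replaced TMM, to log2 ratios of 0.010 (Cx3cl1), 0.044 (Cxcl12), 0.036 (Il10rb), 0.0017 (Il17d) and 0.041 (Il1rl2); none of these was called. DESeq2 size factors and a prior of 2 counts changed no sign and no call among the 34. Levels per kilobase were not run, because no exon lengths were used. No ratio could be tested without a library. No paired analysis was possible because there is a single group of 2 libraries. Depth limits the members with few reads, since a count of 0 allows up to 3 reads.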
